A study of Mus musculus with 18 samples.

Results

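Cd163l1, 5830411N06Rik, Sox13 and Zbtb16 are 4 of the 23234 gene symbols in an RNA-seq table of mouse CD8 T cells with and without the histone methyltransferase G9a. They were chosen by their FPKM in these same libraries, above all in the CD4-negative knockout cells, and then taken by symbol, so every difference of these genes between groups is given here as a description with no test. H3K9me3 peaks that the authors had assigned to any of the 4 genes were added from peak lists of cultured CD8 T cells.

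The RNA came from T cells of C57BL/6 background, recovered from spleen and lymph nodes once they had divided for 4 weeks under lymphopenia. The groups are KO sp, G9a knockout cells with CD8 and no CD4 (CD4-CD8+, n = 2); KO DP, G9a knockout cells with both co-receptors (CD4+CD8+, n = 4); and WT, G9a wild-type CD4-CD8+ cells (n = 4). For chromatin there are 2 libraries of Ehmt2-/- (KO) and 2 of Ehmt2+/+ (WT) splenic CD8+ T cells cultured with antibodies to CD3 and CD28, a different state of the cells from that sampled for RNA. Neither the means of deletion nor the number of animals behind each group is stated in the labels, so any p-value measures the spread between these libraries, which may be technical.

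Gamma-delta T cells carry a receptor of gamma and delta chains, and some of them leave the thymus already set to make interleukin 17. In mice, Cd163l1 and 5830411N06Rik encode the membrane proteins Scart1 and Scart2 of the scavenger receptor cysteine-rich family, known as surface proteins of such gamma-delta T cells. Sox13 encodes an HMG box transcription factor of the SoxD group that acts in gamma-delta T cell development, and Zbtb16 encodes PLZF, a BTB zinc finger protein that directs natural killer T cells and other innate-like T cells. G9a, encoded by Ehmt2, mainly places mono- and dimethylation on lysine 9 of histone H3, whereas the trimethylated form, H3K9me3, is a mark of silent chromatin and repeats that other enzymes mainly place.

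The receptor genes lie close together in the same orientation on mouse chromosome 7. Their upstream sequences are shown because both genes were highest in the KO sp libraries. The 250 bases before each start come from RefSeq on GRCm38.p6, where 3 of the 4 genes matched and 5830411N06Rik had 3 overlapping windows, of which the most upstream is shown. Capitals mark the letters of any of the 6 motifs searched on both strands.
Cd163l1, chr7:140218017-140218266, plus strand: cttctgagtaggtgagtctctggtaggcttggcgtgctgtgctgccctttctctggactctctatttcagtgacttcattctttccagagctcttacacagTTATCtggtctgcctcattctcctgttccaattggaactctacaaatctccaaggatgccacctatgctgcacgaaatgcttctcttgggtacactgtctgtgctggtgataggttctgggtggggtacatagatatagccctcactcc
5830411N06Rik, chr7:140247051-140247300, plus strand: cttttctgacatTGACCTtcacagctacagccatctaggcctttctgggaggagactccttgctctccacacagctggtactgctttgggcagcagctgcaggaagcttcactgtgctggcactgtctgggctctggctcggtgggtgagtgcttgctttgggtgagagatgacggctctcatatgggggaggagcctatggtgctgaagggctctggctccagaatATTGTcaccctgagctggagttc
The 2 sequences held no motif in common. The window of Cd163l1 held the GATA letters GATAA on the minus strand (printed as TTATC), which 22.6% of the 32851 mouse windows of this length also held. The window of 5830411N06Rik held the nuclear receptor core letters AGGTCA (printed as TGACCT; 14.0% of windows) and the SOX core ACAAT (printed as ATTGT; 27.7% of windows), both on the minus strand. Neither held the RUNX letters TGTGGT (14.0% of windows), the STAT letters TTCNNNGAA (7.02%) or the TATA letters TATAAA (12.4%).
Both receptor windows had few CpG, with 2 each against a median of 6, and GC contents of 48.8% for Cd163l1 and 56.0% for 5830411N06Rik against a median of 52.4%. The window of Sox13 (chr1:133424213-133424462, minus strand) had 31 CpG and a GC content of 72.4%, and 94.8% of windows had fewer CpG.

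Expression is given as FPKM, fragments counted on a gene and divided by its length and by the size of the library, with no read counts in the table. Summed FPKM was 292872 and 183632 in KO DP replicates 3 and 4 and 441903 to 504013 in the other 8 libraries, so values are also given after median-ratio scaling where that matters. Ehmt2 itself was 12.6 and 13.6 FPKM in KO sp, 20.9, 23.6, 12.8 and 7.28 in KO DP and 18.1, 42.6, 27.0 and 21.5 in WT, so KO DP overlapped WT. Which exons were removed is not known from the labels, and its level checks the labels only in part. Cd4 was 0.192 and 0.222 FPKM in KO sp, 49.4 to 178 in KO DP and 0.144 to 0.495 in WT, and Cd8b1 was 1344 to 1477 in KO sp, 248 to 904 in KO DP and 1180 to 1511 in WT, each on the side its label gives. Library titles carry numbers 34 to 37 (KO DP replicates 1 and 2, WT replicates 1 and 2) or 738 to 741 (all others, KO sp included), and values within a range are given for the 4 genes and for the list genes described. KO sp and KO DP both have titles 738 and 739, and the labels do not say whether a shared number means a shared animal.

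Cd163l1 RNA was abundant in the knockout and low in the wild type. It stood at 98.5 and 103 FPKM in the KO sp libraries. In KO DP it stood at 65.0, 62.8, 19.2 and 26.4 FPKM for replicates 1 to 4, and in WT at 6.35, 2.74, 5.31 and 4.38 FPKM. The 3 groups did not overlap: both KO sp libraries lay above every KO DP library, and the lowest KO DP library lay above the highest WT one. Among the 11162 genes tested, 35.5% had KO sp above KO DP without overlap, 21.1% had KO sp above WT, and 3.4% had KO DP above WT.

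The mean of Cd163l1 was 100.8 ± 3.21 FPKM in KO sp (SD, n = 2), 43.4 ± 23.9 in KO DP (n = 4) and 4.70 ± 1.53 in WT (n = 4), or 21.5-fold higher in KO sp than in WT and 9.23-fold higher in KO DP than in WT. On the log2(FPKM + 1) scale, KO sp exceeded WT by 4.20 ± 0.49 (SE), the difference of rank 6 among the rises of 11162 genes, and exceeded KO DP by 1.38 ± 0.49. KO DP exceeded WT by 2.82 ± 0.40, the difference of rank 49 among the rises, with all 4 KO DP libraries higher. By limma with Benjamini-Hochberg adjustment at 0.05 that comparison called 7.89% of all genes, 2.86% as higher and 5.03% as lower. In bulk RNA, more cells that make a receptor and more of its RNA in each cell cannot be told apart.

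Cd163l1 was higher in KO DP than in WT in both title ranges. Within titles 34 to 37 KO DP exceeded WT by 3.63, and within titles 738 to 741 by 2.01, on the log2 scale. KO sp libraries exist only in the second range, where they exceeded KO DP by 2.11 and WT by 4.13. After scaling, Cd163l1 stood at 80.2 and 88.7 in KO sp, 55.4, 53.5, 25.7 and 56.3 in KO DP and 2.45 to 5.93 in WT, still without overlap. The share of all genes that kept the groups apart in this way was not computed, before or after scaling. KO sp exceeded KO DP by 0.87 after scaling and by 0.65 without KO DP replicates 3 and 4, a smaller step in the same direction.

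5830411N06Rik followed a different order, high in KO sp and with overlapping values in the other groups. It stood at 94.2 and 156 FPKM in KO sp. It stood at 48.2, 33.9, 9.93 and 11.4 FPKM in KO DP replicates 1 to 4, and at 31.7, 12.3, 29.0 and 21.9 FPKM in WT. Both KO sp libraries lay above all 8 others, whereas KO DP spanned the whole WT range. Of all genes tested, 35.5% had KO sp above KO DP without overlap and 21.1% had KO sp above WT. The share with KO sp above both groups was not computed.

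The mean of 5830411N06Rik was 125.0 ± 43.5 FPKM in KO sp (SD, n = 2), 25.9 ± 18.5 in KO DP (n = 4) and 23.7 ± 8.67 in WT (n = 4), so that KO sp was 4.83-fold above KO DP and 5.27-fold above WT. On the log2 scale KO sp exceeded KO DP by 2.48 ± 0.61 and WT by 2.39 ± 0.61, ranks 83 and 32 among the rises of 11162 genes. Within titles 738 to 741 these differences were 3.39 and 2.22. KO DP differed from WT by -0.09 ± 0.50.

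That pooled value joined opposite differences. In titles 34 to 37 both KO DP libraries of 5830411N06Rik lay above both WT libraries (log2 difference 0.99), and in titles 738 to 741 both lay below (-1.17). The median difference over all genes tested was 0.05 in titles 34 to 37 and -0.82 in titles 738 to 741, where 47.1% of genes were called lower. The share of all genes that separated in these ways within a range was not computed. After scaling, the pooled difference was 0.29 and neither separation held. In titles 34 to 37 KO DP replicate 2 then stood at 28.9 scaled FPKM and WT replicate 1 at 29.6, and in titles 738 to 741 KO DP replicate 4 stood at 24.3 and WT replicate 4 at 19.8. These libraries therefore give no single direction for 5830411N06Rik in KO DP against WT.

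**Figure D1:**
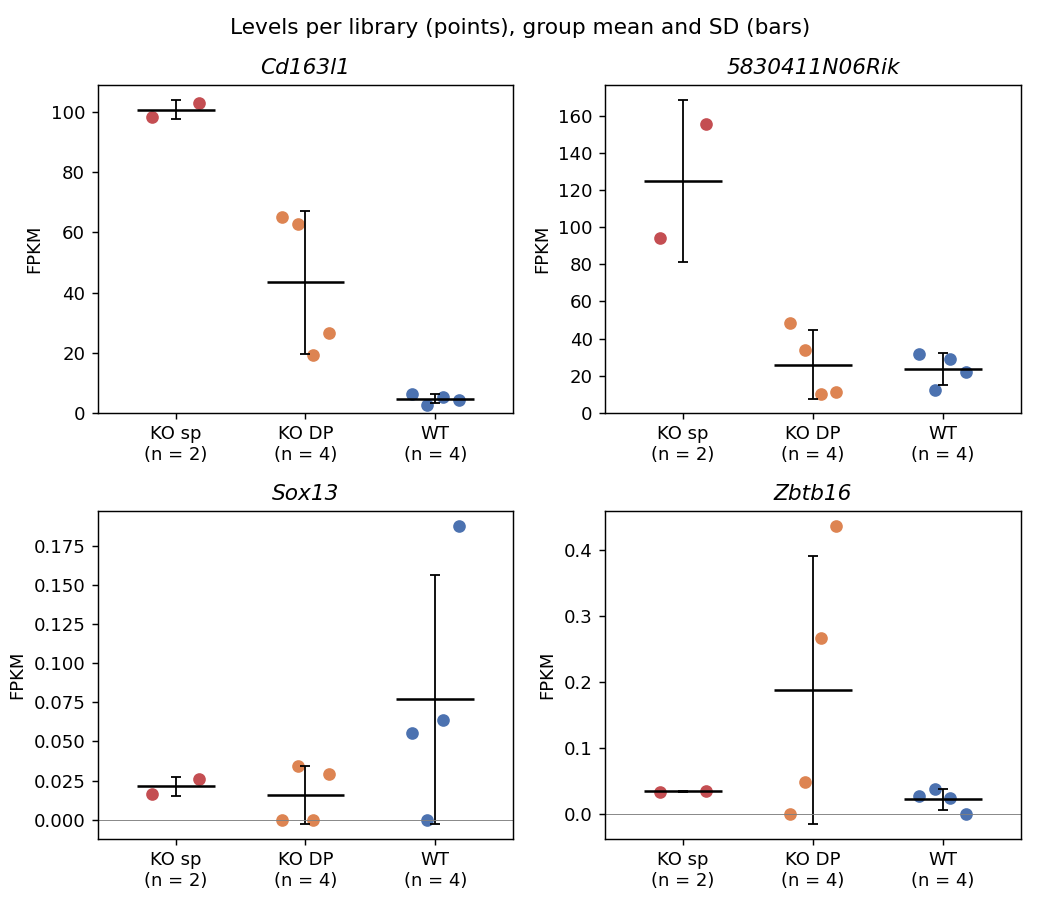
FPKM of each gene (vertical axis, linear, a separate scale for each gene) in KO sp, KO DP and WT libraries; points are libraries, the wide bar is the group mean and the whiskers are the SD. Cd163l1 separates the 3 groups, 5830411N06Rik sets KO sp apart from both others, and Sox13 and Zbtb16 stay under 0.5 FPKM in every library.

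The receptors also differed in their balance within a library, a ratio that no scaling of whole libraries can alter. FPKM of 5830411N06Rik divided by FPKM of Cd163l1 was 0.956 and 1.51 in KO sp. It was 0.741, 0.540, 0.517 and 0.431 in KO DP and 4.99, 4.48, 5.46 and 4.99 in WT. Each WT library thus held several times more 5830411N06Rik than Cd163l1, each KO DP library held less of it than of Cd163l1, and the KO sp libraries lay between these groups without overlap.

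The mean ratio was 1.23 ± 0.393 in KO sp (SD, n = 2), 0.557 ± 0.131 in KO DP (n = 4) and 4.98 ± 0.400 in WT (n = 4). It kept this order within titles 738 to 741, so the opposite differences of 5830411N06Rik in the title ranges did not carry over to the ratio. Cd163l1 made up 51.1% and 39.8% of the summed FPKM of the pair in KO sp, 57.4% to 69.9% in KO DP and 15.5% to 18.2% in WT. Across all 10 libraries the pair had a Pearson r of 0.66 and a Spearman rho of 0.71 on the log2 scale, a description that mixes the differences between groups with those within them.

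**Figure D2:**
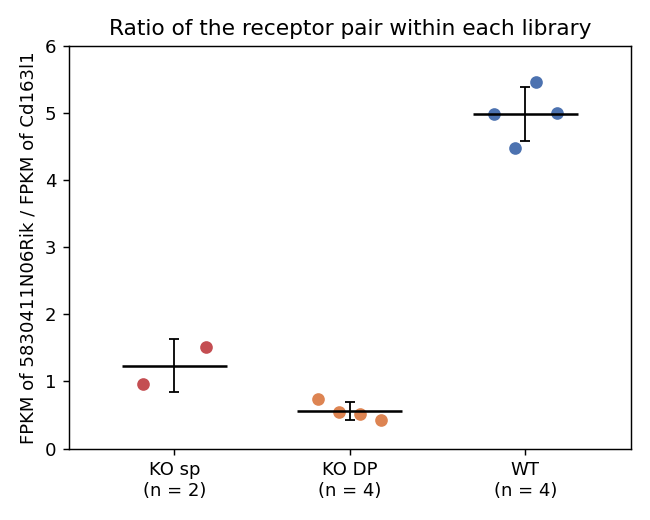
Ratio of 5830411N06Rik to Cd163l1 in FPKM (vertical axis, linear from 0) in each library of KO sp, KO DP and WT; points are libraries, the wide bar is the mean and the whiskers are the SD. The WT libraries sit between 4.48 and 5.46, above every knockout library.

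Neighbouring genes varied in level and in the order of the groups. Olfr524, which overlaps the span of Cd163l1 and so cannot be told from it by unstranded reads where they overlap, averaged 0.834 FPKM in KO sp, 0.353 in KO DP and 1.45 in WT. Olfr522, Olfr523, Olfr525 and Olfr527 averaged under 0.5 FPKM in every group. Mtg1, a mitochondrial GTPase gene farther upstream, averaged 28.9 FPKM in KO sp, 8.48 in KO DP and 22.6 in WT and so was lowest in KO DP. Paox, a polyamine oxidase gene beyond it, averaged 11.9 FPKM in KO sp, 10.7 in KO DP and 7.20 in WT. These means had the group order of Cd163l1 with smaller differences. The KO DP libraries of Paox, at 8.94 to 13.7 FPKM, enclosed the KO sp ones at 11.1 and 12.7. These neighbours were named after their values were seen.

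Sox13 was near 0 throughout. It was 0.0167 and 0.0257 FPKM in KO sp, 0, 0.0345, 0 and 0.0292 in KO DP, and 0.0554, 0, 0.0640 and 0.188 in WT. The groups overlapped, its mean over all libraries was under the 0.5 FPKM needed for a test, and the highest value was in WT. Log2 differences were 0.008 for KO sp minus KO DP, -0.07 for KO sp minus WT and -0.08 for KO DP minus WT. Abundant Scart receptor RNA thus stood beside Sox13 RNA at or close to 0 in the same libraries.

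Zbtb16 was also close to 0 in KO sp and WT. It was 0.0339 and 0.0348 FPKM in KO sp, 0, 0.0483, 0.267 and 0.437 in KO DP replicates 1 to 4, and 0.0282, 0.0378, 0.0247 and 0 in WT. The groups overlapped, and only KO DP replicates 3 and 4 lay above 0.1 FPKM. The log2 differences were -0.18 for KO sp minus KO DP, 0.02 for KO sp minus WT and 0.20 for KO DP minus WT, with no test, since the gene was under the filter.

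The Zbtb16 signal in KO DP moved with that of olfactory receptor genes, a family outside the known biology of T cells. Mean FPKM over 1118 of these genes was 0.1495 and 0.227 in KO DP replicates 3 and 4, against 0.0200 and 0.0134 in KO DP replicates 1 and 2 and 0.00739 to 0.0210 in the KO sp and WT libraries. Without those 2 libraries the log2 difference of Zbtb16 between KO DP and WT was 0.0018. The part of this signal in the Zbtb16 values was not tested. In these data the label of innate-like factors therefore names genes with little or no RNA.

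**Figure D3:**
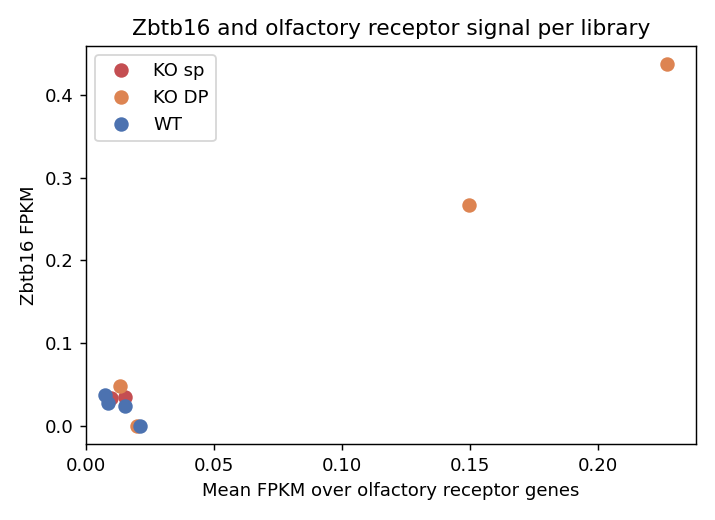
Zbtb16 in FPKM (vertical axis) against mean FPKM over olfactory receptor genes (horizontal axis), 1 point a library, coloured by KO sp, KO DP and WT; both axes are linear. KO DP replicates 3 and 4 lie far from the other 8 libraries on both axes.

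Genes of the interleukin 17 programme of gamma-delta T cells were higher in KO DP than in WT. Of its 25 genes 21 were tested. In KO DP against WT 10 rose and 1 fell, where 2.86% of all genes rose and 5.03% fell, with a median log2 difference of 1.06 against -0.38 over all genes tested. The calls with the smallest p were Ccr6, Tmem176b, Tmem176a and Il17re. Ccr6, a chemokine receptor gene, rose by 3.70 ± 0.32 (adjusted p 5.08e-05 by limma). The ion channel genes Tmem176a and Tmem176b rose by 3.26 ± 0.33 and 3.24 ± 0.31. Il17re, for a subunit of the interleukin 17C receptor, rose by 2.05 ± 0.24 (adjusted p 0.000502 by limma). The 10 rises were called whichever library was left out. Within titles 34 to 37 the list's median was 1.23 with 3 rises (0.448% of all genes rose), and within titles 738 to 741 it was 0.79 with 11 rises and 3 falls (6.79% and 47.1% of all genes). The differences of Ccr6 in these ranges were 4.00 and 3.39, those of Tmem176a 4.00 and 2.52, those of Tmem176b 3.97 and 2.51, and those of Il17re 2.21 and 1.89.

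Ccr6 shows the pattern by library. It stood at 6.03 and 7.87 FPKM in KO sp, 24.3, 36.3, 18.3 and 15.3 in KO DP, and 1.02, 0.820, 0.174 and 1.43 in WT. The groups did not overlap, with KO DP the highest and WT the lowest; 4.44% of tested genes had KO sp below KO DP in this way.

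In KO sp, where both scavenger receptors were highest, the list's median was below that in KO DP. In KO sp against KO DP 3 of the 21 genes fell and none rose, with a median of -0.74 against 0.43 over all genes, in a comparison that called 2.07% of genes, 1.65% as higher and 0.421% as lower. They were Tmem176b (-2.12 ± 0.38), Maf, a transcription factor gene (-1.85 ± 0.39), and Tmem176a (-1.74 ± 0.40). Those calls are fragile and were lost without either KO sp library, which leaves a single library in that group. Without a KO DP or WT library, adjusted p by limma was up to 0.081 for Tmem176a and 0.064 for Maf. For Tmem176b it was up to 0.034 in those fits. After scaling, 8 of the 21 genes fell. Within titles 738 to 741, where KO sp and KO DP share title numbers, 9 of the 21 fell and 3 rose, with a median of -0.31 against 0.89 over all genes, of which 3.05% fell and 50.4% rose. With the title number as a replicate block, calls over all 6 pathway lists, in either direction, were 35 in place of 3. Calls over all genes rose likewise, to 4587 from 231. Titles 738 to 741 alone, with no block, gave 37 pathway calls and 5964 over all genes. The rise is thus not particular to the block.

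In KO sp against WT none of the 21 genes was called by limma, 6 were higher at an unadjusted p under 0.05 (2.25% of all genes), and the median was 0.45 against 0.11, in a comparison that called 0.116% of genes, 0.0717% as higher and 0.0448% as lower. Ccr6 differed by 2.13 ± 0.40 on the log2 scale (adjusted p 0.108 by limma), and after scaling 1 gene of the list was called higher. Il17a, interleukin 17A itself, was listed at 0 in both KO sp libraries and all WT libraries and stood at 0.128 to 1.82 FPKM in KO DP.

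**Figure D4:**
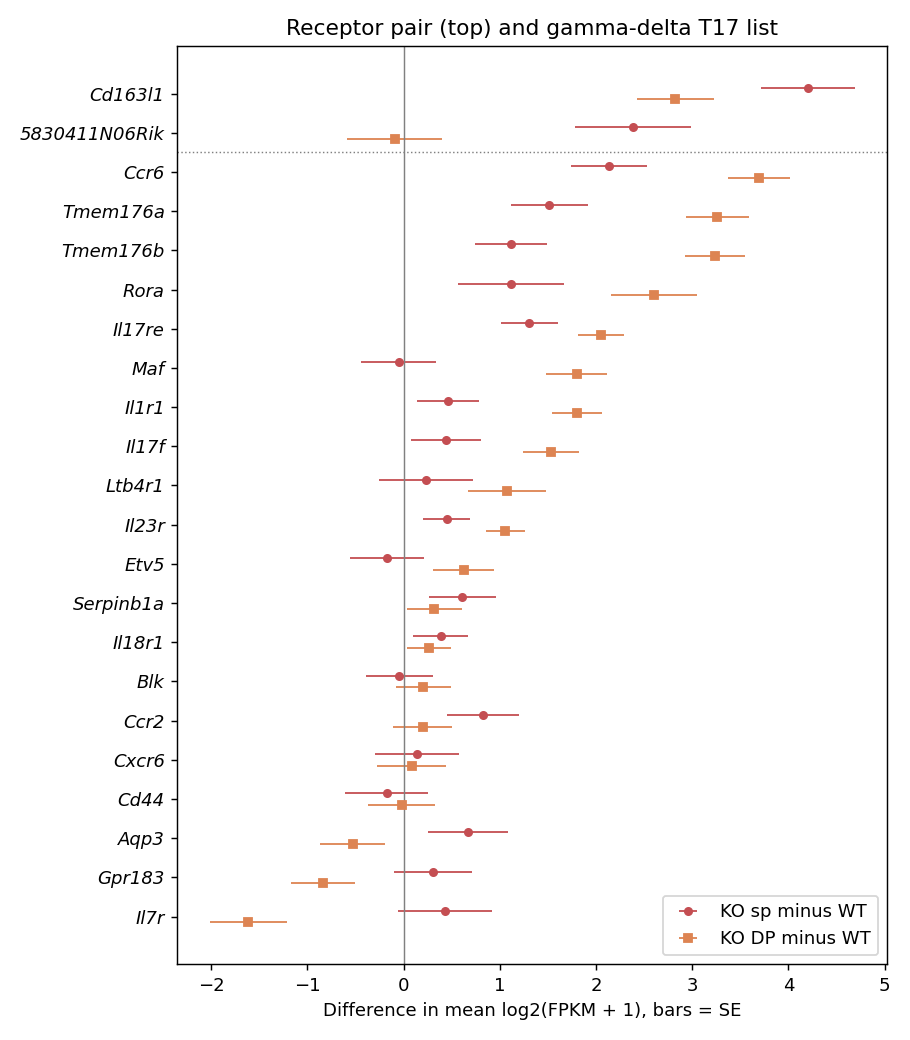
Difference in mean log2(FPKM + 1) from WT (horizontal axis) for the receptor pair above the dotted line and for tested genes of the gamma-delta interleukin 17 list below it (all but 1); red circles are KO sp minus WT, orange squares are KO DP minus WT, and bars are standard errors. The receptors have their larger difference in KO sp, whereas the genes from Ccr6 to Il23r have theirs in KO DP.

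The single fall of the list, Il7r, the interleukin 7 receptor gene, is less firm. It averaged 233 FPKM in KO sp, 60.8 in KO DP and 184 in WT, and its difference between KO DP and WT was -1.61 ± 0.40 (adjusted p 0.0318 by limma). Within titles 34 to 37 the difference was -0.76 and within titles 738 to 741 it was -2.46. The call was lost without any of the 10 libraries except KO DP replicate 1 and WT replicate 2, with an adjusted p of up to 0.117.

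Innate-like T cell genes overlap that list in part. At an unadjusted p under 0.05, 20.8% of all genes were higher and 2.7% lower in KO sp against KO DP, 2.25% higher and 1.19% lower in KO sp against WT, and 6.82% higher and 20.5% lower in KO DP against WT, and the counts at that level for this and the following lists read against these shares. Of 24 listed genes 20 were tested, and 3 rose in KO DP against WT and none fell, among them Ccr6 and Icos, a costimulatory receptor gene (1.93 ± 0.33, adjusted p 0.00517 by limma; 2.14 and 1.71 within the title ranges). That share of the list stands beside 2.86% of all genes that rose. None was called in KO sp against KO DP (3 higher and 3 lower at an unadjusted p under 0.05) or in KO sp against WT (5 higher and 0 lower). After scaling 8 rose in KO DP, 1 rose and 4 fell in KO sp against KO DP, and 1 rose in KO sp against WT. Il13, a cytokine gene of PLZF-bearing natural killer T cells, was listed at 0 in all 10 libraries.

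Among 15 tested genes known to act upstream of or together with PLZF, 2 rose in KO DP against WT and none fell (2.86% and 5.03% of all genes), while Zbtb16 stayed low. Egr2, an early growth response factor gene that switches Zbtb16 on in natural killer T cell precursors, was 2.11 and 1.53 FPKM in KO sp, 3.56 to 20.04 in KO DP and 0.796 to 2.17 in WT (KO DP minus WT 2.12 ± 0.42, adjusted p 0.0119 by limma, 0.0526 without WT replicate 3; 2.54 in titles 34 to 37 and 1.69 in titles 738 to 741). Slamf1, a SLAM family receptor gene, differed by 1.71 ± 0.36 (adjusted p 0.0159 by limma, 0.0574 without WT replicate 1 and 0.0559 without WT replicate 3; 2.28 and 1.13 in the title ranges). None was called in KO sp against KO DP (2 higher and 2 lower at an unadjusted p under 0.05) or against WT (0 at that level), and after scaling 7 rose and 1 fell in KO DP against WT. After scaling 4 also fell in KO sp against KO DP, namely Egr1, Egr2, Runx1 and Slamf1.

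Of 12 tested relatives of PLZF in the BTB zinc finger family, 1 rose in KO DP, Zbtb7b, the ThPOK gene of the CD4 lineage (1.47 ± 0.34, adjusted p 0.0253 by limma; 1.93 and 1.00 within the title ranges), where 2.86% of all genes rose. The call was lost without WT replicate 1 (adjusted p 0.0733), 3 (0.0883) or 4 (0.0784). None was called in KO sp against KO DP (1 lower at an unadjusted p under 0.05) or WT (0 at that level). After scaling 2 rose and 1 fell in KO DP against WT, and Zbtb7b fell in KO sp against KO DP.

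Relatives and partners of Sox13 gave no Sox factor to set beside it: Sox4, Sox5, Sox6, Sox8, Sox9 and Sox12 were all under the filter. Of the 5 partner genes tested 2 fell in KO DP against WT, where 5.03% of all genes fell, both high mobility group factor genes that T cells need. Tcf7 was 290 and 335 FPKM in KO sp, 52.4 to 176 in KO DP and 192 to 410 in WT, with KO DP below WT without overlap as in 13.1% of genes (KO DP minus WT -1.46 ± 0.40, adjusted p 0.0474 by limma). Lef1 differed by -1.31 ± 0.37 (adjusted p 0.04999 by limma, just under the threshold of 0.05). Each call was lost in 7 of the 10 fits that left out 1 library, with an adjusted p of up to 0.152 for Tcf7 and 0.167 for Lef1. Within titles 34 to 37 the differences were -0.72 for Tcf7 and -0.61 for Lef1, and within titles 738 to 741 they were -2.20 and -2.01. None of the 5 was called in KO sp against KO DP (3 higher at an unadjusted p under 0.05) or WT (1 lower at that level). After scaling 3 fell in KO DP against WT, namely Tcf7 (adjusted p 0.0131 by limma), Lef1 (0.0218) and Tle4 (0.0107). Scaling gave no call of the 5 in KO sp against KO DP or WT.

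Other scavenger receptor genes gave no call as deposited. Of the 13 such genes with a line, 6 were tested, and none was called in KO sp against KO DP, in KO sp against WT or in KO DP against WT by limma, with 2, 0 and 2 at an unadjusted p under 0.05. Cd6, a T cell receptor of the same domain family, was 366 and 297 FPKM in KO sp, 116 to 355 in KO DP and 113 to 246 in WT. Cd163, the macrophage gene from which Cd163l1 takes its name, was 0.0143 and 0.0823 FPKM in KO sp, 0.0398 to 1.28 in KO DP and 0.0529 to 0.676 in WT. After scaling 2 of the 6 rose in KO DP against WT, Cd6 (0.84, adjusted p 0.0213 by limma) and its T cell relative Cd5 (0.70, adjusted p 0.00785 by limma), and 2 fell, the class B receptor genes Scarb1 (-0.86) and Scarb2 (-0.69). The group means of Cd6 had the order of those of Cd163l1, with overlapping libraries.

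Markers of other cells were read beside the receptors, and their part in the receptor differences was not tested. None of the 18 listed symbols of gamma and delta receptor chains matched a line of the table, so these chains were not analysed here. The summed FPKM of 8 natural killer cell genes was 793 and 141 in KO sp, 39.2 to 106 in KO DP and 64.8 to 301 in WT. Gzma, a granzyme that CD8 T cells also make, stood at 738 and 99.9 in KO sp. Other genes of the list had unlike orders. Ncr1, also on the innate lymphoid list, was 0 in both KO sp libraries, 0.298 to 0.785 in KO DP and 0.0282 to 0.989 in WT. Klrb1c averaged 2.26 FPKM in KO sp, 0.997 in KO DP and 0.511 in WT. Myeloid and erythroid genes followed the title range rather than the group. The sum of 11 myeloid genes was 16.8 and 12.4 in KO sp, 163, 106, 7.06 and 12.2 in KO DP and 60.4, 177, 12.5 and 24.9 in WT, or 60.4 to 177 in titles 34 to 37 and 7.06 to 24.9 in titles 738 to 741. The sum of 6 erythroid genes was 468 to 1213 in titles 34 to 37 and 1.32 to 57.3 in titles 738 to 741, the ranges between which 5830411N06Rik changed direction. The sum of 8 B cell genes was 85.1 and 107 in KO sp, 46.1 to 81.7 in KO DP and 36.8 to 106 in WT. The sum of 10 innate lymphoid genes was 342 and 287, 68.8 to 214 and 124 to 249 in that order. Il7r made up most of the KO sp sums, at 215 and 252 FPKM, against 39.2 to 107 in KO DP and 86.3 to 225 in WT. Of the others, Klrg1 averaged 56.4 FPKM in KO sp and 35.1 in KO DP, whereas Kit averaged 0.433 in KO sp and 4.48 in KO DP. The sum of 10 alpha-beta T cell and CD8 genes was 5230 and 4801 in KO sp, 1322 to 4272 in KO DP and 4068 to 5022 in WT.

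The genes most like each member over the 10 libraries, by Pearson r of log2(FPKM + 1) among 11160 genes, are given as a description, since the libraries share 3 groups. For Cd163l1 they were Apol10b (0.95), Fam3b (0.94) and 2010005H15Rik (0.94), of which Apol10b averaged 10.9 FPKM in KO sp, 9.29 in KO DP and 1.47 in WT. For 5830411N06Rik they were Dleu7 (0.94), Retsat (0.93) and Ttc30a2 (0.92), of which Dleu7 averaged 5.02 FPKM in KO sp, 0.980 in KO DP and 0.937 in WT. The receptors thus had separate lists. For Sox13 they were Gm10416 (0.92), Mir1940 (0.91) and Mir27b (0.91), and both microRNA genes were above 0 in WT replicate 4 alone. For Zbtb16 they were Olfr23, Mir669a-7 and Defb2 (0.99 each), which were highest in KO DP replicates 3 and 4.

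H3K9me3 peaks assigned to the 4 genes numbered 4 and 5 in the KO lists, which held 111149 and 154997 peaks. In the WT lists, which held 85960 and 23304, they numbered 4 and 2. Genes with any peak numbered 11718 and 13015 in the KO lists and 12879 and 8341 in the WT lists. The median per such gene was 2 peaks, or 1 in WT replicate 2. Scores are the authors' own and are read here within a list only. With lists of such unequal length, absence from the shortest, WT replicate 2, says little, and no test was run on the peaks.

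The peak that recurred lay in intron 3 of 4 of 5830411N06Rik, on an MTA_Mm element, a long terminal repeat of the MaLR class. It was 500 bp long in each list and lay 12.1 to 12.4 kb from the start, at chr7:147445254-147445754 (mm9) in KO replicate 1, chr7:147445113-147445613 in KO replicate 2, chr7:147445380-147445880 in WT replicate 1 and chr7:147445188-147445688 in WT replicate 2. The peaks of KO replicate 2 and WT replicate 1 overlapped by 233 bp, and the other 5 pairs by 308 to 434 bp. The score of this intronic peak was 7.28 and 9.32 in the KO lists and 9.74 and 14.2 in the WT lists, at 72.4%, 47.4%, 63.9% and 61.6% from the top of each list. The region was thus marked in both genotypes by peaks of ordinary rank. Only 3.06% of the 249993 regions of the 4 lists, and 37 of the 284 regions with a peak on an MTA_Mm element (13.0%), were in all 4.

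Cd163l1 had a peak in each WT list and none in the KO lists, but not the same peak. In WT replicate 2 it lay in intron 2 of 13 (chr7:147406975-147407475, mm9, score 14.2), 3059 bp from the start, and in WT replicate 1 it lay at the transcript end (chr7:147417645-147418145, score 11.9). A further WT replicate 1 peak was assigned to 5830411N06Rik 11929 bp upstream of it (chr7:147421021-147421521, score 10.3), on an L1Md_F3 element. Regions found in WT replicate 1 alone made up 13.9% of all regions and those in WT replicate 2 alone 2.33%, so a lone peak was common.

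Sox13 had the strongest peak of the 4 genes, 5.5 to 5.8 kb upstream of its start, on an RLTR11A2 element, an endogenous retrovirus repeat of the ERVK class, as annotated in KO replicate 2 and WT replicate 1. It was 961 bp long in KO replicate 1 (chr1:135325836-135326797, mm9, score 24.3), 1977 bp in KO replicate 2 (chr1:135325544-135327521, score 50.8) and 1312 bp in WT replicate 1 (chr1:135325897-135327209, score 40.6). In its list it ranked within the top 6.86%, 1.3% and 7.94%, and it was not in WT replicate 2. Other peaks assigned to Sox13 lay over 36 kb away in the KO lists. Zbtb16 had 1 peak, in KO replicate 1, 13336 bp upstream (chr9:48657032-48657740, mm9, score 11.2). None of the 4 genes had a peak over its start site in any list.

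**Figure D5:**
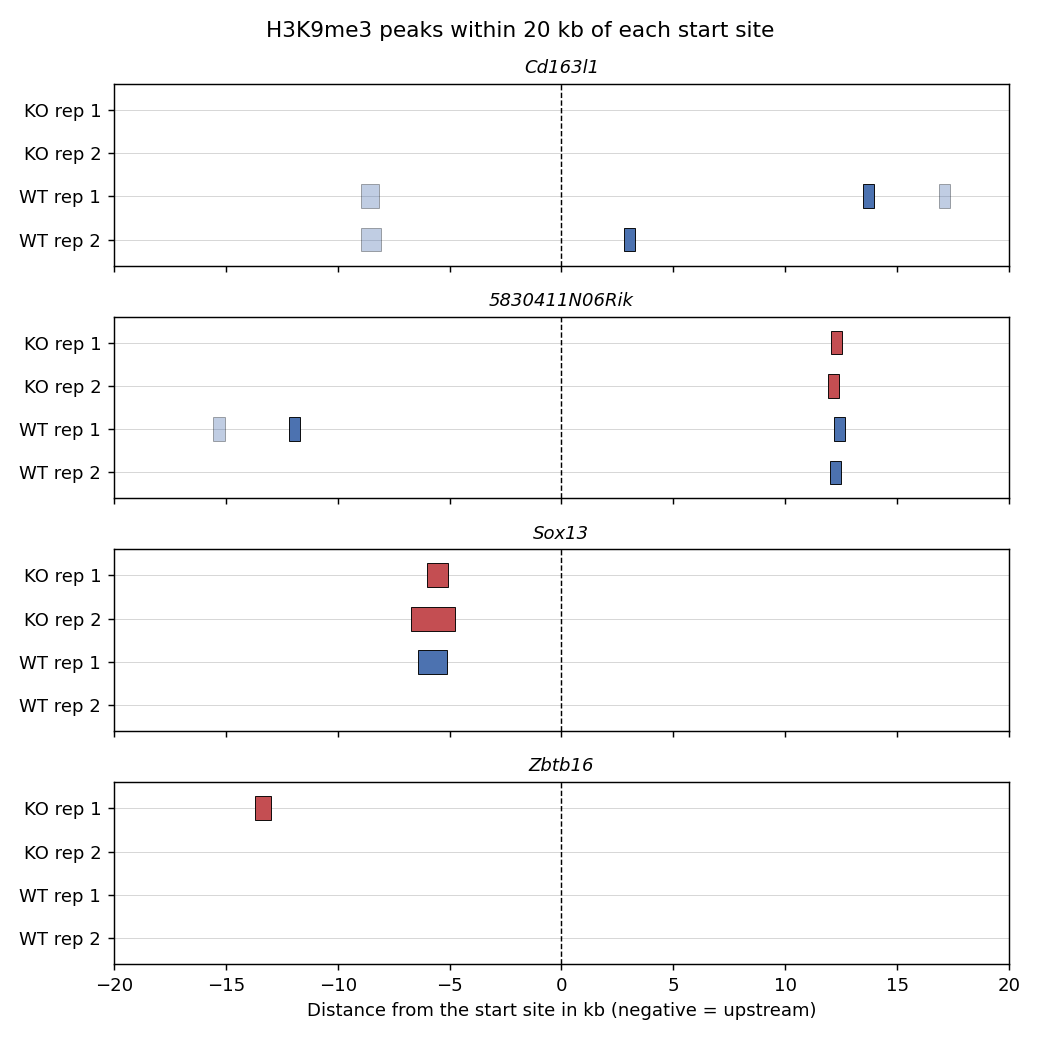
H3K9me3 peaks (boxes, to scale) within 20 kb of each start site (dashed line), with distance in kb on the horizontal axis and 1 row for each list, KO in red and WT in blue; dark boxes are peaks assigned to the gene and pale boxes are peaks assigned to another gene. The box about 12 kb inside 5830411N06Rik is in all 4 lists, and the broad box upstream of Sox13 is in both KO lists and WT replicate 1.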

How the data were processed

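RNA values are FPKM deposited by the authors; the submitters' processing notes name TopHat, Cufflinks and the mm9 build. Up to 5 ng of total RNA went into each library, amplified with SMART-Seq v4 and Nextera, which does not mark the strand. H3K9me3 peaks came from native ChIP, 1 list per library, for which the notes name Bowtie, HOMER and mm9; each peak's score and other columns (length in bp, distance to the start) are as the authors deposited them. Their versions, thresholds and annotation were not given in the sources used here, input libraries were not analysed here, and 16 columns of the authors' means and ratios were not used.

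The 23700 lines were summed to 23234 symbols (466 surplus lines). The 11162 genes averaging 0.5 FPKM or more were tested on log2(FPKM + 1), a scale that understates changes of low genes, using limma 3.58.1 (R 4.3.3) with a mean-variance trend. All 10 libraries shared 1 spread (7 residual degrees of freedom), and p-values were adjusted over all genes by Benjamini-Hochberg, with a threshold of 0.05. FPKM holds no counts, so no counting intervals were computed; precision is given by the spread of 2 or 4 libraries. Scaling used median-ratio size factors from 11742 genes, 0.747 and 0.470 for KO DP replicates 3 and 4 and 1.07 to 1.23 for the others. It moved the median of all genes from 0.43 to -0.002 in KO sp minus KO DP and from -0.38 to -0.04 in KO DP minus WT.

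The members, the 6 gene lists and 7 marker lists, the tests and the naming rule were chosen with earlier results of these data known, so no p-value is given for a difference of a member between groups. Named were the 4 members, label checks, up to 4 genes a list and comparison by smallest p, genes at 0, abundant markers and the 3 genes most like each member; other names were chosen after their values were seen. A gene of the lists that enters their counts is not reported here by name.

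KO DP and WT share replicate numbers 1 to 4 in the descriptions. Deviations of same-numbered libraries from their group means had correlations of 0.119, 0.294, 0.111 and 0.103. Differently numbered libraries were not compared, so these values do not settle whether the numbers pair the samples. Pairing also cannot be told from the title ranges. The main fit paired no libraries, and a replicate block on the description number was run only as an alternative. Alternatives were another pseudocount, no filter, scaling, replicate blocks, libraries left out, title ranges and stricter peak rules.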

Additional observations from a re-analysis of the deposited data

Results flagged for a closer look

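The difference of 5830411N06Rik between KO DP and WT had opposite directions in the title ranges: every KO DP library lay above every WT library in titles 34 to 37 (48.2 and 33.9 against 31.7 and 12.3 FPKM), and every one lay below in titles 738 to 741 (9.93 and 11.4 against 29.0 and 21.9 FPKM). An interaction term in limma over the 8 libraries gave -2.16 ± 0.60 on the log2 scale (second range minus first). After scaling it was -1.19, when neither range kept its separation. Both values are descriptions with no p-value, since the gene was chosen by its FPKM in these libraries. Over all genes tested, the median of KO DP minus WT was 0.05 in titles 34 to 37 and -0.82 in titles 738 to 741. KO DP replicates 3 and 4, the pair of the second range, had the lowest summed FPKM. Cd163l1 shifted the same way (-1.61 ± 0.49, and -0.62 after scaling) while keeping its direction. The part of the low sums in these shifts was not tested. No library of a group of 4 stood apart from the others by Dixon's test for the 4 genes or for the ratio of the pair, which chance alone would flag in about 1 of 20 groups. The test looks for 1 extreme library. It cannot flag a pair that lies apart together, such as KO DP replicates 3 and 4 for Cd163l1.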

How the results depend on the processing

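Cd163l1 in KO DP minus WT stayed positive under every alternative run, was 3.63 in titles 34 to 37 alone and 2.57 to 3.14 without 1 library. 5830411N06Rik in KO DP minus WT changed sign with scaling (0.29), without KO DP replicates 3 and 4 (0.82), in titles 34 to 37 (0.99) and without 1 library (-0.48 to 0.24), and was -1.17 in titles 738 to 741 alone; the cause was not tested. For KO sp minus KO DP, the replicate block on the title number (titles 738 and 739) and titles 738 to 741 alone each gave 2.11 for Cd163l1, 3.39 for 5830411N06Rik and -0.38 for Zbtb16, and leaving out KO DP replicates 3 and 4 gave 0.65, 1.56 and 0.015. Without 1 library, KO sp minus KO DP was 1.06 to 1.63 for Cd163l1, 2.12 to 2.86 for 5830411N06Rik, 7.97e-05 to 0.02 for Sox13 and -0.26 to -0.09 for Zbtb16; a lone KO sp library is then assumed to vary like the other groups. KO sp minus WT was 4.01 to 4.34, 2.03 to 2.75, -0.11 to -0.03 and 0.006 to 0.02 in the same order. KO DP minus WT was -0.12 to -0.03 for Sox13 and 0.10 to 0.28 for Zbtb16.

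With a pseudocount of 0.1, Sox13 differed by 0.077 (KO sp minus KO DP), -0.44 (KO sp minus WT) and -0.52 (KO DP minus WT), and Zbtb16 by -0.79, 0.14 and 0.93, as values near 0 then weigh more by construction. Zbtb16 in KO DP minus WT was 0.0018 without KO DP replicates 3 and 4, -0.013 in titles 34 to 37 and 0.41 in titles 738 to 741.

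Calls over the 6 pathway lists were 3 in KO sp minus KO DP, 0 in KO sp minus WT and 17 in KO DP minus WT. KO sp minus KO DP gave 1 with no filter, 15 with scaling, 35 with the title-number replicate block, 37 in titles 738 to 741, 14 without KO DP replicates 3 and 4, 0 with only the 2 groups compared and 0 to 11 without 1 library. KO sp minus WT gave 1 with a pseudocount of 0.1, with scaling or in titles 738 to 741, and 2 with only the 2 groups compared. KO DP minus WT gave 36 with scaling, 3 in titles 34 to 37, 38 in titles 738 to 741 and 11 to 21 without 1 library, WT replicate 3 giving 11. The replicate block on the description number left the differences of Cd163l1 (2.82) and 5830411N06Rik (-0.09) as they were, gave 20 pathway calls and raised the calls over all genes to 1375 against 881. Scaling gave 1027 higher and 984 lower calls in KO DP minus WT, against 319 and 562, and 388 and 272 in KO sp minus KO DP, against 184 and 47. Over all genes, calls in KO sp minus KO DP, KO sp minus WT and KO DP minus WT were 231, 13 and 881, against 660, 20 and 2011 with scaling, 5964, 63 and 6015 in titles 738 to 741, 86, 27 and 556 with only the 2 groups compared, and 21 to 401, 9 to 16 and 308 to 1211 without 1 library. KO sp minus KO DP also gave 113 with no filter, 460 without KO DP replicates 3 and 4 and 4587 with the title-number replicate block, KO sp minus WT 29 without KO DP replicates 3 and 4, and KO DP minus WT 73 in titles 34 to 37.

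Peaks assigned to the members numbered 9 in the KO lists and 6 in the WT lists. With scores at or above the median of their list the WT lists held 2 and the intronic peak of 5830411N06Rik was in 1 list; within 10 kb of a start site the KO and WT lists held 2 each and the intronic peak was in 0. Under an overlap of at least 0.5 of the shorter peak all 4 lists were still linked at the intronic peak, with 1 of 6 pairs short of it. Without 1 library the KO count was 4 to 9, the WT count 2 to 6, lists with the intronic peak 3 and lists with the Sox13 peak 2 to 3. No paired analysis was possible for peaks because their counts come from no test. What depth limits could not be measured, since the table holds no read counts.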

Other observations

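A peak that the authors had assigned to Olfr524 lay 8.5 to 8.6 kb upstream of the start of Cd163l1, on an L1MA5A element, in both WT lists (chr7:147395198-147395994, mm9, score 23.3 in WT replicate 1; chr7:147395216-147396088, score 31.6 in WT replicate 2) and in neither KO list. It ranked within the top 19.7% and 16.3% of its lists. It was chosen after its values were seen, and 2484 of the 249993 regions (0.994%) shared that pattern of both WT lists and no KO list. The KO lists were the longer ones, with 111149 and 154997 peaks against 85960 and 23304 in WT. It was not tested, and the lists come from cultured cells rather than those sampled for RNA.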
